A study of Mus musculus with 2 samples.

Results

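Out-of-frame TCRα junctions are the TCRα clonotypes whose CDR3, the stretch where a V segment is joined to a J segment, has a length that is not a multiple of 3. They were taken as every clonotype with a TRAJ gene as its first J gene and a frameshift mark in its translated CDR3, and there were 4420 of them among 19558 clonotypes of both chains in 2 libraries. The thymus library held 1521 of them among 6089 TCRα clonotypes, and the spleen library held 2899 among 9583. They were set beside the in-frame junctions without a stop codon, 4545 in the thymus and 6651 in the spleen, and 23 and 33 in-frame junctions with a stop codon were kept apart. Reading frame was the rule and is no finding. The V and J segments, the trimmed bases and the inserted bases together set the CDR3 length and so the frame. None of these measures chose the members by itself, but they are not independent of the rule. Reads per clonotype were not used to choose the members.

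Both libraries came from T cells regenerated from iR9-ESC, a C57BL/6 mouse embryonic stem cell line in which doxycycline turns on Runx1 and Hoxa9 from the Rosa26 locus. Blood progenitors made from these cells had been transplanted into immunodeficient B-NDG mice, and CD4 and CD8 single-positive T cells were sorted by flow cytometry, 15000 cells for each library. The study's text describes the sorted cells of both tissues as naive, CD62L+ and CD44-, but the gates listed in its methods name these 2 markers for the spleen alone, so whether the gates differed is uncertain. Pooling of mice was not stated. With 1 library per tissue there was no replicate check, so tissue, gate, mouse and library cannot be told apart, and tests between the libraries compare those libraries and not the tissues. The thymus library had 918063 TCRα reads and the spleen library 1820314, and 3 reads made up 0.000327% and 0.000165% of them. No molecular identifiers were stated, so intervals cover counting error only, and the tests treat clonotypes as independent.

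A TCRα gene is assembled in the thymus by cutting a TRAV and a TRAJ gene segment and joining their ends, after bases have been trimmed from the ends and others inserted between them, the latter by the enzyme TdT. Because trimming and insertion are imprecise, many joins leave the J segment and the constant region TRAC out of the reading frame of V, and such an allele encodes no TCRα chain. Both TCRα alleles of a T cell commonly rearrange, and repeatedly, with later joins taking upstream V and downstream J segments, so a cell can carry an out-of-frame allele beside the in-frame one that gave its receptor. Transcripts with an early stop codon are commonly degraded by nonsense-mediated decay.

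The members with most reads are shown first, because they give the form of these junctions. Letters run 5′ to 3′ from the conserved cysteine codon to the J motif, and capitals mark bases assigned to neither the V nor the J segment. Of the 5 members with most reads in the thymus library, the first was also the first in the spleen library:
TRAV8D-2 and TRAJ31: tgtgctacagcaataacagaatcttcttt
TRAV6N-6 and TRAJ56: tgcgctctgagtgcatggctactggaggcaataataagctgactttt
TRAV3N-3 and TRAJ31: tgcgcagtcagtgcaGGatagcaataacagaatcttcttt
TRAV3N-3 and TRAJ23: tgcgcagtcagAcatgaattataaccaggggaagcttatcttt
TRAV6-7-DV9 and TRAJ6: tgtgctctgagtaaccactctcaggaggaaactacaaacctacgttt
The next 4 in the spleen library were:
TRAV11N and TRAJ34: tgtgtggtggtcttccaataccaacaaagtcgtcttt
TRAV19 and TRAJ32: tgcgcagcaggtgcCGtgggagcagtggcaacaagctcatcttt
TRAV6D-7 and TRAJ22: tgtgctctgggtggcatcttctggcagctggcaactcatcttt
TRAV11D and TRAJ21: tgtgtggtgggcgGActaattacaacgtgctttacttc
Of the members found in both libraries, those with the largest smaller read count were the TRAV8D-2 and TRAJ31 junction above and these 2:
TRAV3D-3 and TRAJ23: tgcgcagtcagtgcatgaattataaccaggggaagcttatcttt
TRAV3N-3 and TRAJ27: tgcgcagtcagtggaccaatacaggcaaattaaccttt

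None of these junctions held more than 2 inserted bases, and most held none. The TRAV8D-2 and TRAJ31 junction was 29 bases long, with 3 bases trimmed from V, 5 trimmed from J and 2 bases that could belong to either segment. It had 17499 reads in the thymus library, 12.6% of the reads of all out-of-frame junctions there, and 4949 reads in the spleen library, 1.90% of them. The TRAV6N-6 and TRAJ56 junction, without insertion, had 6968 reads in the thymus library and was not found in the spleen library. After these 2 the reads fell steeply, to 719, 594 and 555 in the thymus and to 937, 712, 693 and 645 in the spleen, none of these found in the other library. The TRAV3D-3 and TRAJ23 junction had 203 thymus and 209 spleen reads, and the TRAV3N-3 and TRAJ27 junction 298 and 168. The top V gene was tied with near-identical copies for the TRAV3, TRAV11 and TRAV6D-7 junctions, so the copy named for them is uncertain.

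Out-of-frame junctions made up 24.98% of the thymus TCRα clonotypes (23.9% to 26.1%, Wilson 95% interval) and 30.3% of those of the spleen (29.3% to 31.2%). Their part of the TCRα reads was smaller, 15.2% for the thymus and 14.3% for the spleen. Reads are amplified copies and not independent draws, so no interval is given for these 2 shares. With only the TRAV8D-2 and TRAJ31 junction left out, the part of the reads was 13.5% and 14.1%. The in-frame class had a leading clonotype too, with 98095 reads in the thymus, 12.6% of the in-frame reads there. In the spleen the largest in-frame clonotype had 30264 reads, 1.94% of them. These were kept, so the lower shares come from a removal in the out-of-frame class alone. The lengths were spread evenly over both wrong frames: 782 thymus junctions were 1 base past a multiple of 3 and 739 were 2 bases past, against 1463 and 1436 in the spleen.

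Out-of-frame junctions had fewer reads per clonotype than in-frame ones in both libraries. The median was 60 reads in the thymus (quartiles, 29 and 101) against 97 for in-frame junctions (47 and 192), a ratio of 0.619. For the spleen the median was 69 (36 and 117) against 129 (63 and 249), a ratio of 0.535. The classes overlapped over most of their range, but their upper parts differed: 31.7% of out-of-frame and 56.0% of in-frame junctions of the thymus lay above the common median of 84 reads, a difference of -24.3 percentage points (95% interval, -27.0 to -21.5, two-sided Fisher's exact test, Benjamini-Hochberg over 12 class comparisons, adjusted p = 1.41e-60). In the spleen 30.2% against 58.4% lay above 103 reads, a difference of -28.1 points (-30.2 to -26.1, exact test, adjusted p = 8.55e-143).

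**Figure D1:**
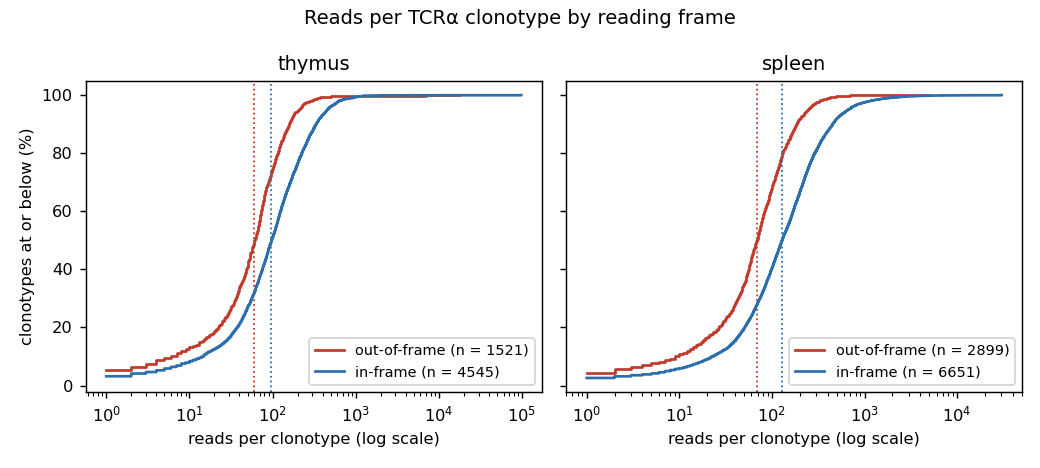
Cumulative share of TCRα clonotypes (vertical axis, percent) with at most the reads on the horizontal axis (log scale), for out-of-frame and in-frame junctions of each library, with dotted lines at the medians. The out-of-frame curves lie to the left over the middle of the range, with medians of 60 against 97 reads in the thymus and 69 against 129 in the spleen.

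The lower read number was seen within single genes as well. Among J genes with at least 10 junctions of each class, the out-of-frame median was the lower one in 41 of 42 in the thymus and 43 of 43 in the spleen, with a median ratio of 0.649 and 0.531. Among V genes it was lower in 52 of 57 in the thymus and in 80 of 85 in the spleen. Both wrong frames had like medians, 61 and 60 thymus reads and 69 and 67.5 spleen reads. Junctions that were in frame but held a stop codon had medians of 10 and 6 reads, over only 23 and 33 clonotypes, of which 34.8% and 36.4% had a single read.

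Insertions differed between the classes in the spleen library. Of its out-of-frame junctions 52.9% had no inserted base (51.1% to 54.8%), against 40.9% of in-frame ones (39.8% to 42.1%), a difference of 12.02 points (9.85 to 14.2, Fisher's exact test, adjusted p = 9.63e-27). In the thymus the shares were 33.9% (31.5% to 36.3%) and 31.8% (30.4% to 33.1%), a difference of 2.09 points whose interval ran from -0.618 to 4.85 (exact test, adjusted p = 0.149). Without junctions found in both libraries the thymus difference was 4.67 points and passed (exact test, adjusted p = 0.00164), whereas with P nucleotides counted as inserted it turned to -0.943 points and did not pass (adjusted p = 0.495). The 2 differences themselves differed between the libraries, in a test added after the values were seen (logistic model with an interaction of class and library, likelihood ratio and not an exact test, adjusted over 6 such tests, p = 2.27e-06). Out-of-frame junctions of the thymus and of the spleen, compared directly, differed by -19.1 points in the share without insertion (-22.0 to -16.1, Fisher's exact test, adjusted over 2 comparisons of the libraries, p = 9.01e-34).

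**Figure D2:**
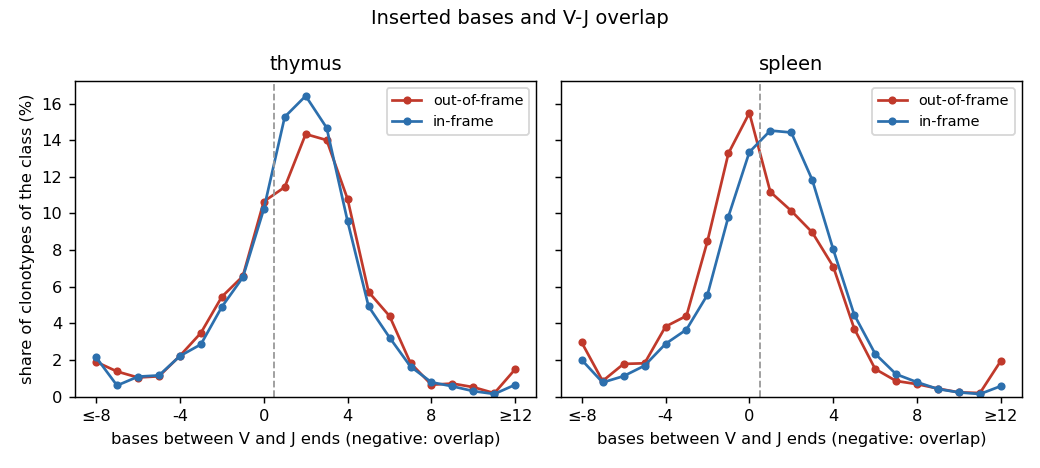
Share of the clonotypes of each class (vertical axis, percent) by the number of bases between the aligned ends of V and J (horizontal axis, negative for bases that both segments could supply), with values beyond the ends of the axis gathered in its outer points. The spleen out-of-frame curve peaks at 0 bases with 15.5%, whereas the thymus out-of-frame curve peaks at 2 bases with 14.3%.

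In the spleen out-of-frame class 15.5% of junctions had V and J ends that met exactly, and 37.5% had ends that overlapped, so that 1 or more bases fit both segments. The in-frame class there had 13.4% and 27.6%. In the thymus the ends met in 10.7% of out-of-frame junctions and overlapped in 23.2%, against 10.2% and 21.5% of in-frame ones. Of all junctions, with and without insertions, 1 to 3 inserted bases were found in 39.8% of out-of-frame and 46.4% of in-frame junctions of the thymus and in 30.3% and 40.8% of those of the spleen. The median number of inserted bases was 2 and 0 for out-of-frame junctions of thymus and spleen, and 2 and 1 for in-frame ones.
The difference in the spleen was present at each level of reads. Split at the quartiles of its out-of-frame reads, the share without insertion was 48.5%, 54.0%, 52.1% and 57.3% from few to many reads, against 32.3%, 35.4%, 39.1% and 45.3% of in-frame junctions. In the thymus the same shares were 34.4%, 31.0%, 34.0% and 36.1% against 30.4%, 30.9%, 28.0% and 34.0%. By position of J, the share of spleen out-of-frame junctions without insertion was 56.0% for TRAJ23 and downstream, 49.4% for TRAJ24 to TRAJ44 and 56.5% for TRAJ45 and upstream. The in-frame junctions of the spleen were lowest in the middle part too, with 43.4%, 38.6% and 41.8%. In the thymus the shares were 35.0%, 31.8% and 39.2% out of frame, and 33.2%, 30.0% and 33.4% in frame.

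The V ends were trimmed less in out-of-frame junctions. More than 1 V base was lost in 41.9% of them and in 48.9% of in-frame junctions of the thymus (difference -6.96 points, -9.82 to -4.08, Fisher's exact test, adjusted p = 5.44e-06), and in 42.3% against 47.6% in the spleen (-5.33 points, -7.48 to -3.16, adjusted p = 3.77e-06). An untrimmed V end was present in 46.3% of out-of-frame and 38.5% of in-frame junctions of the thymus, and in 45.3% and 39.8% of those of the spleen. Of the out-of-frame junctions, 29.5% in the thymus and 28.9% in the spleen carried P nucleotides at V, the palindromic bases left when a hairpin end is opened off its tip, against 24.05% and 25.9% of in-frame ones.
At the J ends the difference passed in the thymus library. More than 2 J bases were lost in 43.5% of out-of-frame and 47.4% of in-frame junctions of the thymus (-3.91 points, -6.78 to -1.02, adjusted p = 0.0110, Fisher's exact test). In the spleen the shares were 43.5% and 45.4% (-1.86 points, -4.02 to 0.306), which did not pass the test (exact test, adjusted p = 0.112). With tied genes left out the thymus difference of -3.26 points did not pass (exact test, adjusted p = 0.0737) and the spleen difference of -3.20 points did (adjusted p = 0.0206), while with at least 10 reads per clonotype the spleen difference was -2.61 points (adjusted p = 0.0292).

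Of 43 J genes with at least 10 junctions in each library, 7 were used differently by the 2 classes in the thymus, 16.3% of those tested, and 7 in the spleen, also 16.3%. In each library 3 of them were more frequent and 4 less frequent among out-of-frame junctions, and 3 genes were called in both libraries, each in the same direction, 42.9% of the calls of either library. With at least 10 reads per clonotype 2 J genes were called in the thymus, and without shared or without tied junctions 3. The 3 germline J segments are shown because each takes the same side in both libraries. Capitals mark the bases that lie within the CDR3 and small letters the rest of the segment (GENCODE M21 transcripts, GRCm38, plus strand).
TRAJ32, chr14:54186101-54186166: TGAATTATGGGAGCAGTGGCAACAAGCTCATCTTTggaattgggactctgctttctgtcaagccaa
TRAJ45, chr14:54172828-54172890: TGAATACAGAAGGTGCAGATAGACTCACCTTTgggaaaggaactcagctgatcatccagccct
TRAJ49, chr14:54168686-54168744: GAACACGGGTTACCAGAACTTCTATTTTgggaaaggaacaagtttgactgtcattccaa
All 3 are annotated as J genes and not as pseudogenes. The 9 annotated J pseudogenes held 1 out-of-frame and 1 in-frame thymus junction and 5 and 3 spleen junctions, and none reached 10 junctions.
TRAJ32 had the largest difference in percentage points in both libraries. It made up 6.11% of out-of-frame and 2.24% of in-frame junctions in the thymus (93 and 102 clonotypes, Fisher's exact test, adjusted over J genes, p = 2.32e-10), and 5.73% and 2.83% in the spleen (166 and 188, adjusted p = 1.64e-09). Read the other way, 47.7% of all thymus TRAJ32 junctions were out of frame (40.8% to 54.7%) and 46.9% of those of the spleen (41.8% to 52.1%). TRAJ45 made up 2.30% against 1.23% in the thymus (exact test, adjusted p = 0.0408) and 2.76% against 1.504% in the spleen (adjusted p = 0.00120). TRAJ49 went the other way, with 1.51% against 3.76% in the thymus (exact test, adjusted p = 9.81e-05) and 2.24% against 3.67% in the spleen (adjusted p = 0.00360), and 11.9% and 21.04% of its junctions were out of frame. TRAJ32 and TRAJ49 passed the test under every filter tried, whereas TRAJ45 in the thymus did not with at least 10 reads per clonotype (exact test, adjusted p = 0.116), without shared junctions (0.0835) or without tied genes (0.285).
The most frequent J gene of out-of-frame junctions was TRAJ31 in both libraries, at 7.03% in the thymus and 6.31% in the spleen. It was more frequent than in the in-frame class in the thymus (5.15%, adjusted p = 0.0432, Fisher's exact test), and in the spleen the in-frame share was 5.11% (adjusted p = 0.0902). TRAJ32 came next in both libraries, followed by TRAJ37 in the thymus (4.997%, in-frame 5.04%) and TRAJ23 in the spleen (4.48%, in-frame 5.56%, exact test, adjusted p = 0.136). TRAJ23 was less frequent among out-of-frame junctions of the thymus, 3.75% against 6.14% (exact test, adjusted p = 0.00402). Over the 43 genes the out-of-frame shares of the 2 libraries had a Pearson correlation of 0.918, a description only, since genes share the libraries' primers and locus order.

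**Figure D3:**
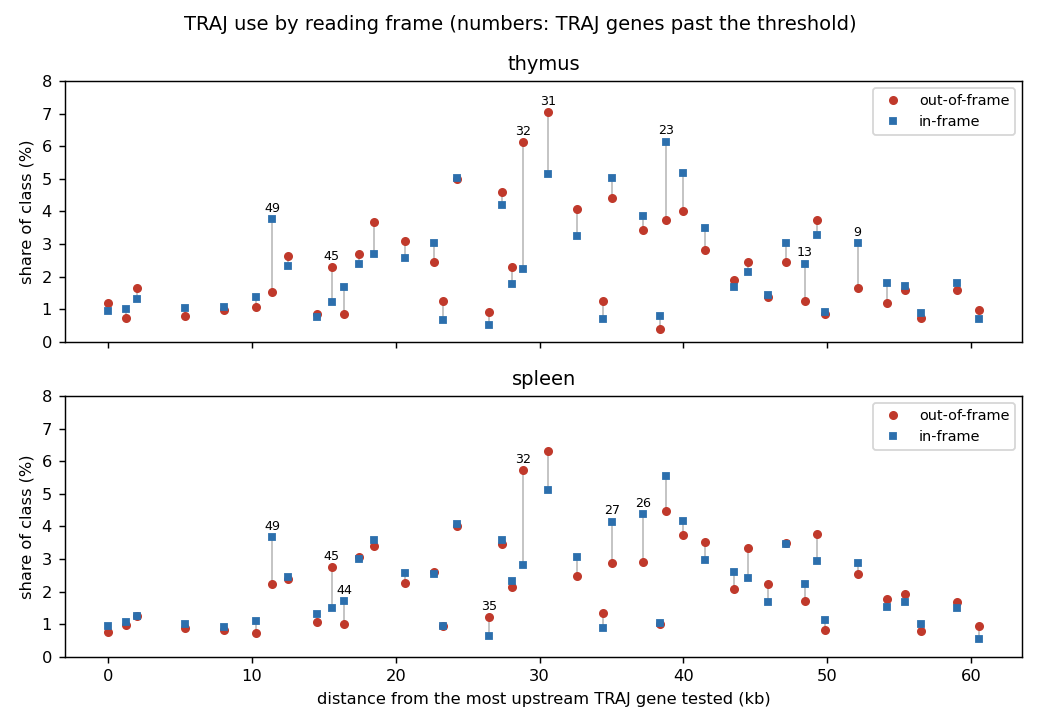
Share of each class (vertical axis, percent) taken by every J gene tested, placed by its distance in kilobases downstream of the most upstream one (horizontal axis), for out-of-frame (circles) and in-frame (squares) junctions of each library, with numbers for the TRAJ genes past the threshold. TRAJ32 stands highest above its in-frame share in both libraries, at 6.11% against 2.24% and 5.73% against 2.83%.

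Summed over the locus, out-of-frame junctions of the thymus used the downstream J genes, TRAJ23 to TRAJ1, less often than in-frame ones: 32.3% against 39.6%, a difference of -7.34 points (-10.1 to -4.57, Fisher's exact test, adjusted p = 8.43e-07). Their share in TRAJ24 to TRAJ44 was 54.0% against 45.6%, and in TRAJ45 and upstream 13.7% against 14.8%. In the spleen the shares downstream were 38.9% and 38.3% (0.580 points, -1.53 to 2.71, exact test, adjusted p = 0.599). The class differences differed between the libraries (interaction as above, adjusted p = 2.50e-05), and the 2 out-of-frame classes differed by -6.59 points (-9.51 to -3.63, Fisher's exact test, adjusted p = 1.44e-05).

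Of 101 V genes tested in the thymus 10 were called, 9.90% of them, 7 more frequent and 3 less frequent out of frame, and of 107 in the spleen 24 were called, 22.4%, 14 more and 10 less frequent. Called in both libraries, and each time in the same direction, were 8 genes, 8 of the 10 thymus calls and 8 of the 24 spleen calls.
More frequent out of frame in both libraries were TRAV19, TRAV13D-3, TRAV11, TRAV15-1-DV6-1 and TRAV8-2. TRAV19 (chr14:53845234-53845827, among the TRAV genes nearest to the J genes) made up 2.104% of out-of-frame and 0.506% of in-frame junctions in the thymus (32 and 23 clonotypes, Fisher's exact test, adjusted over V genes, p = 1.42e-05), and 3.10% and 1.13% in the spleen (90 and 75, adjusted p = 3.40e-09). Out-of-frame junctions were thus 58.2% of its junctions in the thymus and 54.5% in the spleen. TRAV13D-3 had 66.7% and 70.0% of its junctions out of frame, over 24 and 40 clonotypes. TRAV8-2, which GENCODE annotates as a V pseudogene, had 76.9% and 68.2%, over 13 and 22 clonotypes. All annotated V pseudogenes together held 2.24% of out-of-frame and 0.572% of in-frame thymus junctions, and 2.001% and 0.451% of spleen junctions. TRAV11, which forms the invariant receptor of NKT cells when joined in frame to TRAJ18, had 51.1% and 46.6% out of frame. In the spleen TRAV11 did not pass with at least 2 reads per clonotype (exact test, adjusted p = 0.0823), and TRAV8-2 did not with at least 10 (adjusted p = 0.560).
Less frequent out of frame in both libraries were TRAV16N, TRAV16D-DV11 and TRAV14D-3-DV8. TRAV16N made up 1.97% against 3.98% in the thymus (adjusted p = 0.00189, Fisher's exact test) and 1.24% against 5.04% in the spleen (adjusted p = 4.48e-20). TRAV14D-3-DV8 made up 0.526% against 3.15% in the thymus (exact test, adjusted p = 1.22e-08) and 0.966% against 2.17% in the spleen (adjusted p = 2.65e-04), and TRAV16D-DV11 2.104% against 4.004% and 1.76% against 4.27%. Without junctions found in both libraries TRAV16N and TRAV15-1-DV6-1 did not pass in the thymus (exact test, adjusted p = 0.0935 and 0.0693). The 3 V genes most frequent out of frame were the same in both libraries, TRAV6-6 (4.14% and 4.28%), TRAV3D-3 (3.42% and 4.55%) and TRAV6D-7 (2.56% and 3.35%). TRAV6-6 and TRAV6D-7 were called in the spleen (in-frame 2.07% and 1.83%, exact test, adjusted p = 1.88e-07 and 1.65e-04), but not in the thymus (in-frame 2.68% and 2.95%, adjusted p = 0.0522 and 0.777).
Many mouse V genes exist in near-identical copies, and no single copy scored best in 27.4% of the out-of-frame junctions of the thymus and 31.6% of those of the spleen. Grouped into families, a choice made after the values were seen, the TRAV16 family had 14.6% of its thymus junctions (11.5% to 18.3%) and 12.3% of its spleen junctions (10.1% to 14.95%) out of frame. The TRAV14 family had 16.95% and 23.7%, the TRAV6 family, the largest, 29.9% and 38.4%, and the TRAV11 family 54.1% and 54.2%.

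**Figure D4:**
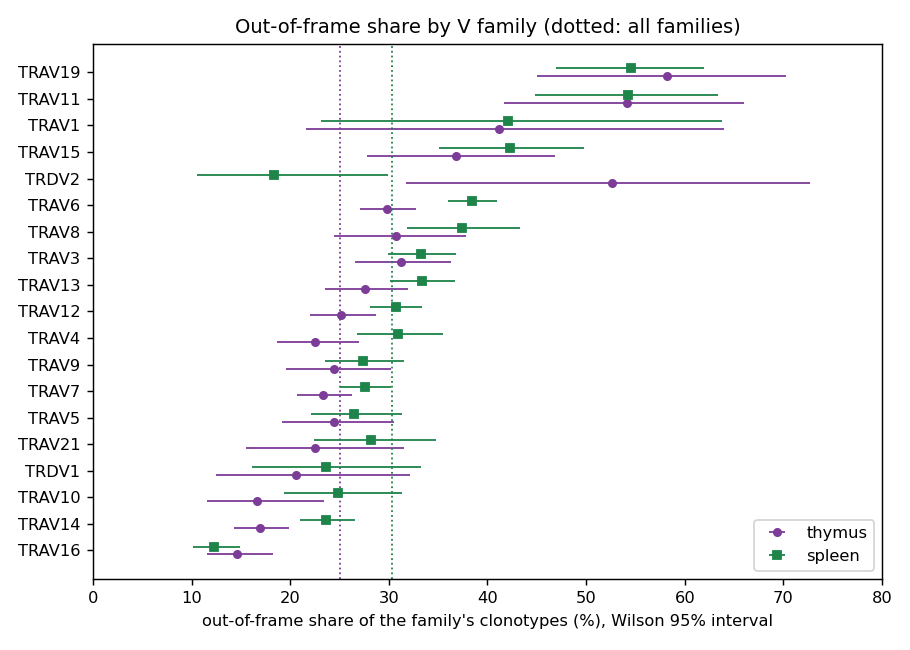
Out-of-frame share of the clonotypes of each V family tested in both libraries (horizontal axis, percent, in-frame and out-of-frame junctions together), with Wilson 95% intervals of counting error as bars and the shares over all families as dotted lines. TRAV16 lies lowest, at 14.6% and 12.3%, and TRAV19 and TRAV11 lie highest, at 54.1% to 58.2%.

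Among the TRAV genes, TRAV17 to TRAV21 lie nearest to the J genes. TRDV1 and the TRDV2 genes lie nearer still and were not counted with them. TRAV17 to TRAV21 made up 4.01% of out-of-frame and 2.53% of in-frame junctions in the thymus (1.48 points, 0.473 to 2.66, Fisher's exact test, adjusted p = 0.00683), and 5.48% and 3.77% in the spleen (1.71 points, 0.799 to 2.70, adjusted p = 3.87e-04). TRAV19 supplied 32 of the 61 thymus and 90 of the 159 spleen members, and without it the shares were 1.91% against 2.02% and 2.38% against 2.65%. Of the out-of-frame junctions with these V genes, 42.6% in the thymus and 57.9% in the spleen had TRAJ45 or a gene upstream of it, against 12.5% and 11.6% of out-of-frame junctions with other V genes. The in-frame junctions with these V genes had 57.4% and 57.8%.

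A small part of the out-of-frame junctions was found in both libraries. The same CDR3 nucleotide sequence was present in both for 87 of them, 5.72% of the thymus and 3.001% of the spleen members. Of the in-frame junctions 612 were present in both, 13.5% and 9.20%. The out-of-frame class was the smaller one, with 1521 and 2899 clonotypes against 4545 and 6651, so fewer pairs could match. The shares of the 2 classes are therefore not directly comparable. Of the 87, 86 had the same J gene in both libraries and 49 the same V and J gene. Those 87 were mostly without inserted bases, 59.8% by the thymus and 60.9% by the spleen assignment, against 32.3% and 52.7% of the members found in 1 library. In-frame junctions found in both libraries had like shares, 58.5% and 59.6%, against 27.6% and 39.0% of in-frame junctions found in 1 library. The median of the 87 was 66 thymus reads and 79 spleen reads, against 60 and 69 for the members found in 1 library.

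A small set of members was not a simple join of V to the J gene assigned. The gap between V and J was 13 bases or more in 20 thymus and 52 spleen out-of-frame junctions, 1.31% and 1.79%, against 0.550% and 0.541% of in-frame ones, and 15 and 40 of them held at least 12 bases of another TRAJ gene or of TRAC. Since these junctions were examined after their lengths had been seen, they are described without a test. In 7 thymus and 9 spleen members the gap held most of a second TRAJ gene lying upstream of the one assigned. Capitals mark the second TRAJ in the most-read example of 3 such combinations:
TRAV16N, TRAJ26, TRAJ25, spleen: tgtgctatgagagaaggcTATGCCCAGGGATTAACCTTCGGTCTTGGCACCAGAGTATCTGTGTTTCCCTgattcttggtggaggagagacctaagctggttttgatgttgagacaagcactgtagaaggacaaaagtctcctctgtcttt
TRAV6D-3, TRAJ31, TRAJ27, thymus: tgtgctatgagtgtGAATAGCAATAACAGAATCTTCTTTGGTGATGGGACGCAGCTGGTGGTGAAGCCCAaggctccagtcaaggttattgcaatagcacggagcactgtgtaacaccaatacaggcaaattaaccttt
TRAV6-2, TRAJ30, TRAJ27, thymus: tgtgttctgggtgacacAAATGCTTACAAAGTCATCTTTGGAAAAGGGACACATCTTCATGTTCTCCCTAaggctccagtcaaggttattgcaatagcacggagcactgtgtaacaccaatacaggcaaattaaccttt
Every out-of-frame junction assigned to TRAJ25, 5 in the thymus and 8 in the spleen, was of this kind, and no in-frame junction without a stop codon was assigned to TRAJ25 in either library. In all 13, from V genes of several families and with 1 to 75 reads, the second gene was TRAJ26 (chr14:54194490-54194549, GRCm38), which was followed to its last base, then came 55 further bases, then TRAJ25 (chr14:54194815-54194871) from its first base without trimming. In the genome 265 bases lie between the 2 genes, so the stretch in the transcripts is shorter than that interval. Counted at TRAJ26 in place of TRAJ25, the V and J26 join was in frame in 10 of the 13. Both TRAJ27 members shown, with TRAJ31 and TRAJ30 as the second gene, carried the same 41 bases before TRAJ27. Counted at the second gene, their joins were in frame too. The remaining member, whose sequence is not shown, held TRAV6-6, TRAJ39 and then TRAJ15, in the spleen library. It had 96 reads, the most of the 16 such members, and 64 bases between TRAJ39 and TRAJ15. Its join was also in frame when counted at TRAJ39.

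**Figure D5:**
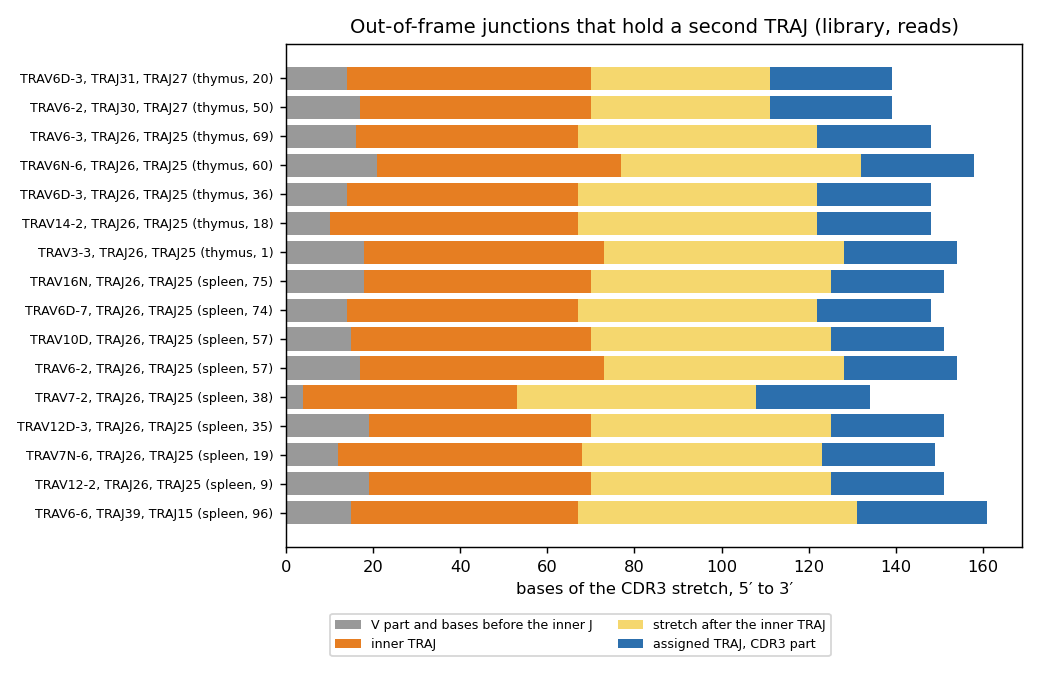
The 16 out-of-frame junctions that hold a second TRAJ gene, drawn to scale in bases (horizontal axis) from the conserved cysteine codon to the end of the CDR3, with bars divided into the V part, the second TRAJ, the stretch after it and the assigned TRAJ, and V gene, second and assigned J gene, library and reads at the left. The stretch after TRAJ26 is 55 bases in each of the 13 TRAJ25 junctions.

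In 8 thymus and 31 spleen members the gap held the first bases of TRAC, the constant-region gene. They had 1 to 3 reads each, no constant gene assigned, and 2 to 11 bases aligned to the J gene named, so that J gene is doubtful. In 1 of the thymus and 16 of the spleen junctions a piece of TRAJ2 ended at base 21 of its 66 bases and TRAC followed directly. One of the 2 spleen examples tied for the longest piece, 20 bases of TRAJ2, is shown, with the 35 bases identical to TRAC in capitals:
TRAV7-2, TRAJ2, TRAC, spleen: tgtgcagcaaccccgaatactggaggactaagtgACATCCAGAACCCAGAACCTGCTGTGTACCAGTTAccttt
In-frame junctions held such gaps too. The gap held at least 12 bases of a TRAJ gene, and not of TRAC, in 4 thymus and 5 spleen clonotypes. In 2 and 3 of these TRAJ18 lay before TRAJ17. The gap held TRAC in 7 thymus and 18 spleen clonotypes.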

How the data were processed

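TCR transcripts of 1 thymus and 1 spleen library were amplified with the SMARTer Mouse TCR a/b Profiling Kit and sequenced by the authors on a MiSeq (bcl2fastq, per the labels). The authors aligned reads and assembled clonotypes with MiXCR against its own gene library. The counts deposited by the authors are reads per clonotype, not normalized. The deposited fraction is that count over all reads of the library, and shares were recomputed here over TCRα reads. Read filters and genome build are not given in the sources used here.

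Inserted bases are the gap between aligned V and J ends, and trimming and P nucleotides come from MiXCR's reference points. Shares of clonotypes carry Wilson 95% intervals, and differences carry Newcombe intervals. Classes were compared by two-sided Fisher's exact tests (scipy 1.17.1), each clonotype counted once, with Benjamini-Hochberg adjustment and calls at 0.05, and the interaction by statsmodels 0.14.6. Gene tests needed at least 10 clonotypes and were tested on simulated data. Named were the 3 leading J and V genes, the genes called in both libraries, and the clonotypes with most reads. Members and lists were chosen with earlier results of these data known. Gene positions and J segments come from GENCODE M21 (GRCm38), in which all V and J names matched.

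Alternatives were other read minimums, leaving out error-like, shared or tied clonotypes, stop-codon junctions in the comparator, and other definitions of insertion, read level and J region.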

Additional observations from a re-analysis of the deposited data

Results flagged for a closer look

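The difference between out-of-frame and in-frame junctions in the share without inserted bases differed between the libraries. It was 2.09 percentage points in the thymus and 12.02 points in the spleen (logistic model with an interaction of class and library, likelihood ratio and not an exact test, adjusted over 6 such tests, p = 2.27e-06), with odds ratios of 1.10 and 1.62. The class difference in the share of downstream J genes, TRAJ23 to TRAJ1, also differed, at -7.34 points in the thymus and 0.580 points in the spleen (again not an exact test, adjusted p = 2.50e-05), with odds ratios of 0.726 and 1.02. These tests were chosen after the values had been seen and compare 1 library with another. The part of the sorting gate, the mouse and the library in them was not tested. For reads per clonotype, V trimming, J trimming and J-proximal V use, the adjusted p of the same test ranged from 0.0688 to 0.662.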

How the results depend on the processing

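No paired analysis was possible because each tissue had 1 library and the labels give no replicate numbers. Over 46 results, 297 of 333 alternative values kept the direction and the side of the threshold, or stayed near the reported value. Of these 297, 156 belonged to 24 main results. The other 141 belonged to genes named because they passed in both libraries, so the total is no independent measure of stability. With at least 10 reads per clonotype, 2 J genes were called in the thymus in place of 7, the spleen out-of-frame share was 29.3% of clonotypes, the spleen J trimming difference was -2.61 points and now passed, and the spleen difference in downstream J use turned to -0.0640 points. Without junctions found in both libraries, the thymus out-of-frame share was 26.6% of clonotypes and 16.9% of reads, and that of the spleen 31.7% and 16.4%, 3 J genes were called in the thymus, and the thymus difference in junctions without insertion was 4.67 points and passed. Without tied genes, the share of reads was 14.8% for the thymus and 12.7% for the spleen, the spleen share of clonotypes was 27.9%, 3 J genes were called in the thymus, J trimming differed by -3.26 points in the thymus, no longer passing, and by -3.20 points in the spleen, now passing, and the spleen difference in downstream J use turned to -0.428 points. With P nucleotides counted as inserted, the thymus difference in junctions without insertion turned to -0.943 points. With TRAJ45 and upstream in place of the downstream J genes, sign turned, the thymus class difference was 1.07 points, that between the out-of-frame classes of the libraries 0.367 points, and the difference of class differences -0.0710 points, none passing.

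Alternatives chosen after seeing the data gave 7 spleen V families called in place of 24 V genes, over fewer units tested. Without TRAV19 the J-proximal differences turned to -0.118 points in the thymus and -0.266 in the spleen. Without the leading shared out-of-frame clonotype, and with every in-frame one kept, the share of reads was 13.5% and 14.1%. Leaving out the gaps that hold TRAJ or TRAC changed 1 call, that of TRAV11 in the spleen (Fisher's exact test, adjusted p = 0.0972). Apart from alternatives named here, the causes of these changes were not tested. No clonotype had a D gene, so leaving those out changed nothing and was not run.

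Error-like clonotypes, 1 change from one with 20 times their reads, were 11 thymus and 49 spleen out-of-frame junctions, 0.723% and 1.69% of the class. In frame they were 39 and 66, or 0.858% and 0.992%, so their share was higher out of frame in the spleen only. Clonotypes with a single read made up 5.46% of out-of-frame and 3.19% of in-frame junctions of the thymus, and 4.38% and 2.60% of those of the spleen. Some calls changed with at least 10 reads per clonotype, as given above, and the part of depth in the class comparisons was not tested further. V genes with few clonotypes, such as TRAV8-2 with 13 and 22, were imprecise.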
